A study of Xenopus laevis with 28 samples.

Results

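The gonads of the African clawed frog Xenopus laevis were compared with its somatic organs. The gonad side held 4 libraries, 2 of testis and 2 of ovary, out of 28 libraries in all, and the somatic side held the 22 libraries of brain, eye, heart, intestine, liver, lung, muscle, pancreas, skin, spleen and stomach. The 2 kidney libraries stood on neither side, because kidney held oocyte transcripts (values below). Members were chosen by tissue label. A gene model was taken as high in all 4 gonad columns when it was called higher and its lowest gonad value lay above its highest somatic value, and as low in all 4 when the reverse held.

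The libraries were polyadenylated RNA of whole minced tissue from frogs of the inbred J strain. Each tissue had 1 library from the Taira dataset (replicate 1) and 1 from the Ueno dataset (replicate 2). Per the study's design text, 2 female frogs, 1 per dataset, gave most of the tissues, and the testes came from 2 male siblings of these females, so sex, animal and tissue cannot be told apart in testis. No treatment or genotype was given for any group.

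A gonad holds germ cells and the somatic cells that support them. In the testis germ cells divide, pass through meiosis and become sperm, so dividing, meiotic and differentiating germ cells are present at once. In the frog ovary most RNA sits in oocytes, which are arrested in the prophase of meiosis and store messenger RNAs and proteins that the early embryo uses for its rapid divisions before its own genome is switched on. Germ cells of both sexes use piRNAs, small RNAs bound by Piwi proteins that silence transposons, and germ granules, in which RNA-binding proteins gather. Xenopus laevis is allotetraploid, and many genes have a copy on a long (L) and a short (S) chromosome set, given here after the point of the symbol.

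Values were deposited as TPM, a transcript's share of a library scaled to 1000000, and are given here as scaled TPM, that is TPM divided by a median-of-ratios size factor of the library. The size factor was 2.16 and 0.868 for testis replicates 1 and 2 and 2.81 and 0.786 for ovary, against 0.185 to 2.34 in the somatic libraries. Values of a tissue are given in the order replicate 1, replicate 2. The read depth behind a TPM is unknown, so no counting interval could be given. The testis replicates correlated with r = 0.86 across models and the ovary replicates with r = 0.863, against 0.618 to 0.769 between testis and ovary and at most 0.69 between a gonad and a somatic library, and these r values only describe the libraries. The markers followed the labels. Sperm genes summed to 1960 and 2750 scaled TPM in testis and 93 and 191 in ovary, and genes of the oocyte coat and oocyte regulators summed to 133 and 95.5 scaled TPM in testis and 3060 and 13600 in ovary. The same oocyte list summed to 268 and 375 scaled TPM in kidney, against a median of 4.92 and a highest value of 83.1, in liver replicate 2, among the somatic libraries.

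The first question was which models the gonads shared in their difference from the body. Of 33317 models tested, 5517 (16.6%) were called higher in gonads and 6518 (19.6%) lower, at a Benjamini-Hochberg adjusted p under 0.05 in limma and a log2 difference of at least 1 on the log2(scaled TPM + 1) scale, which understates the change of low genes. Higher models were 45.8% of all calls, against 64.5% without scaling, 59.3% with a pseudocount of 5 and 67.7% with tissues as the unit (below). The median model differed by -0.21, and leaving out the scaling shifted this median by 0.245. High in all 4 gonad columns were 993 models (2.98% of those tested), and low in all 4 were 704 (2.11%). The count of low models was 123 without scaling and 438 with a pseudocount of 5. Over all models, 8347 were called higher without scaling, and 10175 and 2542 were lower with pseudocounts of 0.1 and 5. The high models had a median difference of 2.84 and the low ones of -2.28, values that their choice sets. In 343 of the high models the lowest gonad value lay at least 1 above the highest somatic value on the log2 scale, and in 56 of the low models the highest gonad value lay at least 1 below the lowest somatic value. Just outside the rule, 18 models were above and 35 were below every somatic value in all 4 gonad columns without being called. In 144 of the high models no somatic library reached 1 scaled TPM, and in 345 of the low models no gonad library did. The error of these calls is the spread between the 2 libraries within a tissue, not the spread among organs. These 2 libraries differ in both animal and dataset. A further fit used 1 mean for the gonads and 1 for the somatic organs and let the libraries of a tissue correlate (0.676). Below it is named tissues as the unit, although the libraries, not tissue means, stayed its observations. It called 2270 models higher and 1084 lower, and still called 951 of the 993 high models and 462 of the 704 low ones. Without testis replicate 1 the count of low models was 1509. In whole-tissue RNA, fewer cells of a type and less RNA per cell cannot be told apart.

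Taken one gonad at a time, 4776 models (14.3%) were higher and 4829 (14.5%) lower in testis than in the somatic organs, and 5914 (17.8%) were higher and 8103 (24.3%) lower in ovary. The gonads share the somatic libraries in these comparisons. Called higher in each gonad were 2046 models (6.14%), and called lower in each were 3666 (11%), a count that was 2400 without testis replicate 2. Without scaling these counts were 3813 and 2158, and with a pseudocount of 5 they were 1228 and 1504. Of the models high in all 4 columns, 924 were also called in each gonad alone, as were 677 of those low in all 4. These 2 counts are largely set by the choice of models, since both gonads had to clear the same somatic libraries. Another 381 models were higher in testis and lower in ovary, and 248 were lower in testis and higher in ovary.

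**Figure D1:**
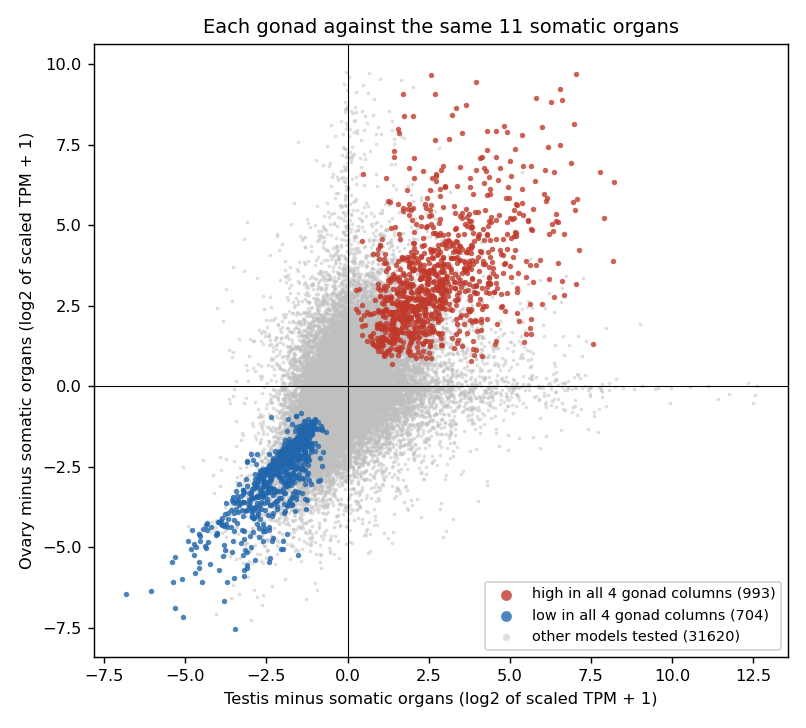
Difference of testis (x axis) and of ovary (y axis) from the mean of the same 11 somatic organs, on the log2(scaled TPM + 1) scale, with 1 point per model tested. The 993 models high in all 4 gonad columns (red) fill the upper right and the 704 low ones (blue) the lower left, while arms of grey points run along each axis where only 1 gonad differed.

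Among models with a gene symbol, 6 of the 12 largest differences belonged to copies of cyclin genes (ccna1, ccnb1.2 and ccnb2), 3 to mitotic kinase genes and the other 3 to caprin2.L, mael.L and cdca3-like.L. Cyclin A1, a germ cell and early embryo partner of the division kinases, stood first. Its L copy (ccna1.L, Xelaev18013704m) stood at 176 and 239 scaled TPM in testis and 570 and 2900 in ovary, against 0 to 3.62 in the somatic libraries with a median of 0.482. Its lowest gonad value thus lay far above its highest somatic value, in spleen, and the log2 difference was 8.37 (SE 0.36, adjusted p = 4.51e-12). The RNA-binding gene caprin2.L (Xelaev18016752m) stood at 91.3 and 132 scaled TPM in testis and 310 and 911 in ovary, against at most 1.74 and a median of 0.0429 in somatic libraries (log2 difference 7.75, SE 0.23, adjusted p = 5.69e-14). All 4 gonad values were again above every somatic one, with ovary above testis.

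The B-type cyclins, which drive entry into division as partners of Cdk1, followed. The gene ccnb1.2.L (Xelaev18023131m) stood at 524 and 275 scaled TPM in testis and 502 and 1430 in ovary, against 0.149 to 7.54 in somatic libraries (log2 difference 7.55, SE 0.26). Testis and ovary overlapped for this gene, unlike for its S copy, ccnb1.2.S, which stood at 140 and 107 scaled TPM in testis and 271 and 993 in ovary, against at most 4.91. Both copies of ccnb2 were higher in ovary than in testis: ccnb2.L at 87.7 and 155 scaled TPM in testis and 270 and 1750 in ovary, and ccnb2.S at 77.7 and 88.5 in testis and 344 and 1540 in ovary, with at most 2.97 in a somatic library. The polo-like kinase gene plk1, needed for spindle assembly and for the exit from meiotic arrest, stood at 52.4 and 116 scaled TPM in testis and 159 and 1090 in ovary for plk1.L, against at most 3.2, and plk1.S differed by 6.46 (SE 0.39). The S copy of cyclin A1 (ccna1.S) had the largest difference between the gonads of these genes, at 21.7 and 24.6 scaled TPM in testis and 690 and 1640 in ovary, against at most 3.76 in somatic libraries. The mitotic kinase gene pbk.L (517 and 898 scaled TPM in testis, 105 and 903 in ovary, at most 6.84 in somatic libraries) and cdca3-like.L (157 and 621 in testis, 246 and 2240 in ovary, at most 10.6 in somatic libraries) completed the mitotic genes among the 12 largest differences.

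The widest gaps between the lowest gonad and the highest somatic value belonged to some of the same genes and to 3 more. The co-chaperone fkbp6.L, which in the mouse is needed for piRNA loading and male meiosis, stood at 134 and 194 scaled TPM in testis and 46.8 and 95.7 in ovary, against at most 0.918 (log2 difference 6.45, SE 0.18, adjusted p = 2.15e-14). The sphingolipid desaturase gene degs2.L stood at 32.8 and 33.3 scaled TPM in testis and 45.1 and 82.6 in ovary, against at most 0.378, with ovary above testis. The poly(A)-binding gene pabpn1l.S stood at 82.4 and 34.7 scaled TPM in testis and 37.3 and 57.3 in ovary, against at most 0.708 in somatic libraries. The gonads overlapped for this gene and their difference did not pass (testis minus ovary 0.21, SE 0.32, adjusted p = 0.744).

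**Figure D2:**
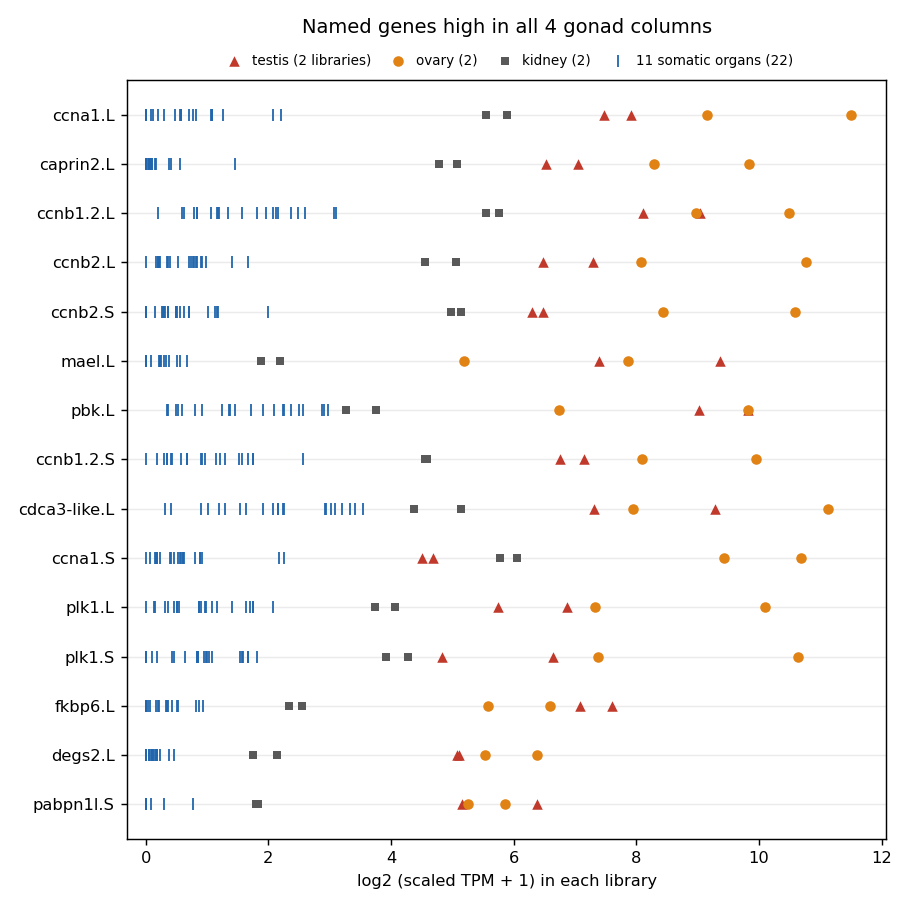
Values in every library, as log2(scaled TPM + 1) on the x axis, of the 15 named genes high in all 4 gonad columns, with testis as triangles, ovary as circles, kidney as squares and the 22 somatic libraries as ticks. All gonad symbols lie to the right of all ticks, and the kidney squares lie between the gonads and the ticks, except for ccna1.S, where they lie to the right of testis.

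The list of cell division kinases, cyclins and checkpoint genes held 41 models high in all 4 columns among 65 tested. Of the 65, 57 were higher in gonads, 1 was lower and 7 were not called (median difference 3.42). Over all models 16.6% were higher and 19.6% lower, and 2.98% were high and 2.11% low in all 4 columns. These shares stand beside the counts of each list below as well. The universal division kinase cdk1.L stood at 110 and 86.6 scaled TPM in testis and 108 and 498 in ovary, against 0.403 to 7.83 in somatic libraries, and cdk1.S, aurkb.L of the chromosomal passenger complex and mastl.L, the Greatwall kinase, differed by 5.79, 6.25 and 5.13. The member that was lower was the phosphatase gene cdc25b.L, at 1.79 and 16.6 scaled TPM in testis and 0.0498 and 0.496 in ovary, against a somatic median of 12.9 (log2 difference -2.08, SE 0.41, adjusted p = 0.000334). The meiotic kinase gene mos.L, which holds the egg in metaphase arrest, stood at 2.08 and 7.04 scaled TPM in testis and 186 and 679 in ovary, against at most 13.8 in somatic libraries, so testis lay in the somatic range. Of the uncalled members the phosphoprotein gene arpp19.S had the highest gonad level, at 56.5 and 22.4 scaled TPM in testis and 54.6 and 51.2 in ovary, against a somatic median of 33.1 (log2 difference 0.37, SE 0.24, adjusted p = 0.207). The S copy (mastl.S) was not called, with a difference of 0.22 (SE 0.25, adjusted p = 0.472).

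Kinetochore genes, whose products attach chromosomes to the spindle, were higher in 30 of 34 models, with 18 high in all 4 columns and a median of 2.14. The gene ska3.L stood at 40.3 and 68 scaled TPM in testis and 34.3 and 61.6 in ovary, against 0.163 to 2.39 in somatic libraries (log2 difference 4.83, SE 0.18, adjusted p = 6.11e-13), and ndc80.S differed by 4.42. In testis minus ovary 8 of the 34 models were lower and 0 higher, against 10.8% and 14.4% of all models. The uncalled zw10.L stood at 8.86 and 5.1 scaled TPM in testis and 14.3 and 6.51 in ovary, against a somatic median of 6.71. With tissues as the unit, that is with libraries of a tissue allowed to correlate, 21 of the 34 were called.

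DNA replication genes, of the origin complex, the MCM helicase and the nucleotide supply, were higher in 59 of 69 models, 24 of them high in all 4 columns (median 2.56), and 41 were called with tissues as the unit. The list's lead members were not among the 24. The ribonucleotide reductase gene rrm2.2.S stood at 82.3 and 44.6 scaled TPM in testis and 418 and 505 in ovary, but at 97.9 in a skin library, and the helicase gene mcm7.L stood at 30.1 and 231 in testis and 263 and 2450 in ovary, but at 40.2 in the same skin library. Skin replicate 1 also had the highest somatic sum of the whole list, 815 scaled TPM, against 1560 and 2180 in testis and 4590 and 8860 in ovary. The clamp loader gene rfc1.L was not called, at 31.7 and 7.55 scaled TPM in testis and 68.3 and 8.67 in ovary (log2 difference 0.90, SE 0.44, adjusted p = 0.0913).

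DNA repair and recombination genes were higher in 32 of 43 models, 21 of them high in all 4 columns (median 1.72), and 23 were called with tissues as the unit. The recombination motor gene rad54b.L was higher in testis, at 71.7 and 127 scaled TPM, than in ovary, at 20.9 and 25.9, with at most 2.85 in somatic libraries. The double-strand break gene mre11a.L was below the size threshold, at 29.2 and 13.4 scaled TPM in testis and 13 and 3.7 in ovary, against a somatic median of 6.56 (log2 difference 0.83, SE 0.26, adjusted p = 0.0116).

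Germ granule and piRNA genes were higher in 22 of 24 models, with a median of 3.0 and 10 models high in all 4 columns. The list summed to 2450 and 1670 scaled TPM in testis and 730 and 2000 in ovary, against at most 64.1 in a somatic library. The germ granule gene mael.L, Maelstrom, stood at 167 and 656 scaled TPM in testis and 35.7 and 230 in ovary, against at most 0.59 (log2 difference 7.28, SE 0.34, adjusted p = 1.29e-11). The Piwi genes differed in which gonad held them. The gene piwil2.L stood at 83.5 and 288 scaled TPM in testis and 12.1 and 31.9 in ovary and was high in all 4 columns. In contrast, piwil1.L stood at 448 and 45.2 in testis but at 0.491 and 0.216 in ovary, below its highest somatic value of 0.595, and piwil4.S at 19.4 and 43.2 in testis but at 0.0107 and 0.0382 in ovary. The helicase gene ddx25.L stood at 81.4 and 14.3 scaled TPM in testis and 120 and 13.5 in ovary, against at most 0.461 in somatic libraries. The RNA-binding gene dnd1.L stood at 30.8 and 21.2 in testis and 9.33 and 34.8 in ovary, against at most 0.256. For both genes the gonads overlapped.

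For 2 genes of the oocyte's germ plasm, testis lay in the somatic range. The RNA-binding repressor nanos1.L stood at 0.0974 and 0.484 scaled TPM in testis and 75.1 and 1460 in ovary, and velo1.L, a scaffold of the Balbiani body, at 0.0696 and 0 in testis and 166 and 35.9 in ovary. The list held 14 models higher in testis than in ovary and 4 lower, against 14.4% and 10.8% of all models. The member grip2.S missed the size threshold (0.80, SE 0.12, adjusted p = 1.82e-05), at 0.821 and 0.403 scaled TPM in testis and 3.8 and 1.97 in ovary, with 4.53 in a brain library.

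The meiotic chromosome genes differed from the rest of the body mainly through testis. Of 25 models tested, 23 were higher in gonads, 1 was lower and 1 was not called, but only stag3.L, mnd1.L, tex12.L and trip13.L were high in all 4 columns. The list's median difference was 4.54 in testis and 0.09 in ovary. Of the 25 models 22 were higher in testis than in ovary, against 14.4% of all models. The synaptonemal complex gene syce2.L stood at 110 and 457 scaled TPM in testis and 0.057 and 0 in ovary, against at most 0.904 in somatic libraries. The axis gene sycp3.L stood at 244 and 46.3 in testis and 0.217 and 0.089 in ovary, and the meiotic cohesin gene rec8.L at 66 and 178 in testis and 0 and 0.242 in ovary, so ovary lay in the somatic range for both. The cohesin gene stag3.L was an exception, at 64.7 and 214 scaled TPM in testis and 6.24 and 17.6 in ovary, against at most 1.25 (log2 difference 4.93, SE 0.23, adjusted p = 1.24e-11). The recombination cofactor mnd1.L stood at 21.7 and 8.17 scaled TPM in testis and 24.8 and 17.9 in ovary, and the gonads overlapped. The crossover gene msh4.L was not called and rested on 1 library, at 8.82 and 0.23 scaled TPM in testis and 0.0392 and 0 in ovary. The member that was lower, zcwpw1.L, stood at 10.8 and 2.32 scaled TPM in testis and 0.0747 and 0 in ovary, against a somatic median of 1.62 and 159 in liver replicate 1 (log2 difference -1.06, SE 0.36, adjusted p = 0.0179).

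Oocyte genes made up the reverse pattern, with 24 of 27 models higher in gonads and 23 higher in ovary than in testis. Of all models 10.8% were higher in ovary than in testis. The list's median difference was 0.23 in testis and 7.19 in ovary. Even so, 6 models were high in all 4 columns, namely btg4.S, zpy1.L, figla.L, zp4.L, zp3.1 and zar1.L. The oocyte transcription factor gene figla.L overlapped between the gonads, at 59.2 and 46.5 scaled TPM in testis and 32.8 and 137 in ovary, against at most 2.37 in somatic libraries (testis minus ovary -0.35, adjusted p = 0.681). The messenger RNA decay gene btg4.S stood at 50.2 and 10.6 scaled TPM in testis and 288 and 139 in ovary, against at most 2.49, while btg4.L stood at 0.213 and 0.115 in testis and 232 and 126 in ovary. Among the egg coat genes, zpy1.L stood at 5.72 and 12.2 scaled TPM in testis and 88.4 and 531 in ovary, against at most 0.657 in somatic libraries. The pluripotency factor copy pou5f3.2.S missed the size threshold, at 0.441 and 1.27 scaled TPM in testis and 0.463 and 1.96 in ovary (log2 difference 0.86, SE 0.13, adjusted p = 2.96e-05), and was called without scaling (1.05).

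Genes of the sperm tail and head were higher in 25 of 33 models and lower in 1. In each of these called models at least 1 gonad column overlapped the somatic range. Their median difference was 3.79 in testis and -0.12 in ovary. Of the 33 models 24 were higher in testis than in ovary, against 14.4% of all models. The axonemal gene dnajb13.S stood at 248 and 508 scaled TPM in testis and 6.31 and 75.8 in ovary, against at most 7.17 in somatic libraries, and lrguk.L at 125 and 355 in testis and 2.28 and 11.1 in ovary, against at most 5.83. For both, ovary replicate 1 lay in the somatic range. Members of this list also serve motile cilia of other organs. Kidney had 5.9 and 7.89 scaled TPM of dnajb13.S. Of the 33 models, 16 were higher in kidney than in the somatic organs, against 7.36% of all models. The source of these transcripts in kidney was not tested for this list. The uncalled crem.L, a transcription factor of spermatids in the mouse, stood at 13.9 and 2.29 scaled TPM in testis and 11.6 and 8.92 in ovary, against a somatic median of 11.5. With tissues as the unit 14 of the 33 models were called higher.

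The genes of gonadal somatic cells and steroid synthesis were called higher in 11 of 50 models (22%) and lower in 4 (8%). Of all models 16.6% were higher and 19.6% lower. The list's median was 0.03, and 7 were called higher with tissues as the unit. A pseudocount of 0.1 gave 19 higher and 11 lower. The pooled values joined gonads that differed. In testis alone 25 of the 50 were higher and 2 lower (median 1.11), against 14.3% and 14.5% of all models. In ovary alone 5 were higher and 15 lower (median -0.48), against 17.8% and 24.3% of all models. In testis minus ovary 26 of the 50 were higher and 2 lower, against 14.4% and 10.8% of all models. The inhibin subunit gene inha.L stood at 134 and 1770 scaled TPM in testis and 1.29 and 19.3 in ovary, against a somatic median of 0.237 and a highest value of 65.7, in heart. The sex regulator dmrt1.L stood at 135 and 256 scaled TPM in testis and 0.0427 and 0 in ovary, against at most 0.372. Only amh.S, a copy of the anti-Mullerian hormone gene, was high in all 4 columns, at 4.48 and 2.36 scaled TPM in testis and 2.88 and 1.25 in ovary, against at most 0.446 (log2 difference 1.70, SE 0.12, adjusted p = 2.09e-09). The Sertoli cell product clu.L was not called. It stood at 754 and 3820 scaled TPM in testis and 4.13 and 19.1 in ovary, against a somatic median of 125. Its gonads went opposite ways, 3.25 in testis (adjusted p = 0.000852) and -4.14 in ovary (adjusted p = 5.59e-05). The ovarian regulator foxl2.L stood at 0.125 and 0.277 scaled TPM in testis and 0.352 and 6.45 in ovary, and the aromatase gene cyp19a1.L at 0.0881 and 0.0461 in testis and 1.03 and 0.28 in ovary, and neither was called.

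Among genes that package chromatin, 26 of 47 models were higher and 4 lower (median 1.24), and 13 and 3 with tissues as the unit. In ovary alone 30 were higher and 5 lower (median 1.7), and in testis alone 10 and 4 (median 0.26). Of all models, 17.8% were higher in ovary and 14.3% in testis. In testis minus ovary 3 of the 47 were higher and 21 lower, against 14.4% and 10.8% of all models. The linker histone gene h1fx.S stood at 5370 and 35100 scaled TPM in testis and 0.214 and 3.03 in ovary, against at most 27.4, so ovary lay in the somatic range. The histone variant gene h2afx.L was high in all 4 columns, at 31.5 and 56.6 scaled TPM in testis and 8.89 and 44.4 in ovary, against at most 1.84. The maintenance methyltransferase gene dnmt1.L stood at 31.9 and 31.6 scaled TPM in testis and 224 and 77.9 in ovary, against at most 17.6. The linker histone of resting cells, h1f0.S, was low in all 4 columns, at 31.9 and 9.52 scaled TPM in testis and 12.7 and 2.79 in ovary, against 37.7 to 197. The histone methyltransferase gene ehmt2.L stayed under the size threshold, at 16.3 and 37.3 scaled TPM in testis and 60.8 and 86.8 in ovary (log2 difference 0.91, SE 0.23, adjusted p = 0.00275).

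Genes of stored messenger RNA and translational control had calls both ways. Of 55 models 23 (41.8%) were higher and 7 (12.7%) lower (median 0.62), against 16.6% and 19.6% of all models. With tissues as the unit the counts were 16 and 4. In ovary alone 24 were higher and 10 lower (median 1.0), and in testis alone 14 and 9 (median 0.32). Of all models, 17.8% were higher and 24.3% lower in ovary, and 14.3% and 14.5% in testis. The polyadenylation regulator cpeb1.L stood at 6.22 and 13 scaled TPM in testis and 52.3 and 348 in ovary, against at most 11.2 in somatic libraries. The cytoplasmic poly(A)-binding gene pabpc4.L was low in all 4 columns, at 6.89 and 4.92 scaled TPM in testis and 2.72 and 8.79 in ovary, against 14.3 to 594. Its relative pabpc1.S was not called (-0.93, SE 0.26, adjusted p = 0.005), at 567 and 847 scaled TPM in testis and 109 and 80.1 in ovary, against a somatic median of 498.

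Of the 993 high models 588 had a gene symbol, and 132 belonged to one of the lists. The following, picked after their values were seen, belonged to none. The ubiquitin-conjugating gene ube2c.L, which serves the anaphase promoting complex, stood at 87.5 and 191 scaled TPM in testis and 374 and 4800 in ovary, against 0.465 to 16.6 in somatic libraries. The condensin gene ncapg.L overlapped between the gonads, at 152 and 175 scaled TPM in testis and 102 and 230 in ovary, against at most 4.79 (log2 difference 6.0, SE 0.23, adjusted p = 1.14e-12). The cohesin acetyltransferase gene esco2.S differed by 6.40 (SE 0.49), the nuclear import gene kpna2.S by 6.11 (SE 0.44) and the polyamine gene odc1.S by 4.97 (SE 0.49). The gonadal TFIID subunit gene taf4b.S stood at 27.1 and 10.2 scaled TPM in testis and 41.9 and 10.3 in ovary, against at most 1.94.

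The 993 shared high models were then compared between the gonads. These models were chosen on the same testis and ovary values, so the shares that follow are partly set by the choice. In testis minus ovary 101 of them (10.2%) were higher and 248 (25%) lower, against 14.4% higher and 10.8% lower among all models. Their median was -0.47, against 0.14 over all models. Under quantile normalization 184 of the models high in that setting were higher and 225 lower in testis, so the size of this skew depended on the processing. It also depended on the ovary replicates. Of all libraries left out in turn, ovary replicate 2 gave the most models higher in testis and the fewest lower. Leaving out ovary replicate 1 gave the most models lower in testis. Among the genes with the largest excess in testis, the germ cell translation factor dazl.L stood at 728 and 143 scaled TPM in testis and 27.8 and 8.71 in ovary, against at most 1.38 in somatic libraries (testis minus ovary 4.28, SE 0.57, adjusted p = 1.63e-05). It was followed by zmynd12.L, desi2.L and arhgap19-like.L, with testis minus ovary differences of 4.09, 4.04 and 3.83. At the other end the egg coat gene zp4.L stood at 3.51 and 3.57 scaled TPM in testis and 171 and 1220 in ovary, against at most 3.46 in somatic libraries. Its testis values thus cleared the highest somatic value, in liver, by 0.01 on the log2 scale. The translational regulator patl2.L (1.99 and 2.42 scaled TPM in testis, 155 and 476 in ovary), cdca7-like.1.L (4.61 and 15.7 in testis, 270 and 2370 in ovary) and the egg coat gene zp3.1 (1.4 and 3.18 in testis, 87.8 and 686 in ovary) followed. Cell division genes were higher in testis than ovary in 5 and lower in 30 of 65 models, and DNA replication genes in 6 and 29 of 69.

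Kidney stood between the gonads and the other organs for many of these genes. In kidney minus the somatic organs, 200 of the 993 models (20.1%) were higher, against 7.36% of all models, and in 389 (39.2%) the kidney mean lay above that of every somatic tissue, against 6.53% of all models. The kidney comparison shares its somatic libraries with that of the gonads. The count of 200 was 125 without kidney replicate 1 and 117 without kidney replicate 2, and it was 548 without scaling and 69 with a pseudocount of 5. The kidney values were 45.7 and 58 scaled TPM for ccna1.L and 26.4 and 32.8 for caprin2.L, and for ccna1.S, at 53.8 and 65.4, they exceeded testis. Of the oocyte list 24 of 27 models were higher in kidney, with a median of 3.17. The source of these transcripts in kidney was not tested.

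The largest differences among named models low in all 4 gonad columns belonged to crip1.L, the rgs2 copies, dstn.S and txn.L. The others belonged to genes of the immune system, of blood and of the stress response. The LIM protein gene crip1.L (Xelaev18040098m) stood at 14.9 and 7.52 scaled TPM in testis and 1.02 and 2.67 in ovary, against 101 to 2680 in somatic libraries with a median of 319. All gonad values lay below all somatic values, and the log2 difference was -6.12 (SE 0.29, adjusted p = 1.7e-11). Both copies of rgs2, a brake on G protein signalling, were low: rgs2.S at 2.21 and 0.853 scaled TPM in testis and 0.285 and 0.394 in ovary, against 18.4 to 379, and rgs2.L at 2.24 and 1.11 in testis and 0.196 and 0.229 in ovary, against 22.4 to 372. The actin-severing gene dstn.S stood at 1.51 and 0.749 scaled TPM in testis and 0.231 and 0.0763 in ovary, against 8.55 to 321. The thioredoxin gene txn.L stood at 0.724 and 5.24 scaled TPM in testis and 0.481 and 0.242 in ovary, against 8.8 to 500, and testis replicate 2 came nearest to the somatic range. None of these 5 genes passed the threshold in kidney, with kidney minus somatic differences of -0.63 for crip1.L and -0.18 for txn.L.

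**Figure D3:**
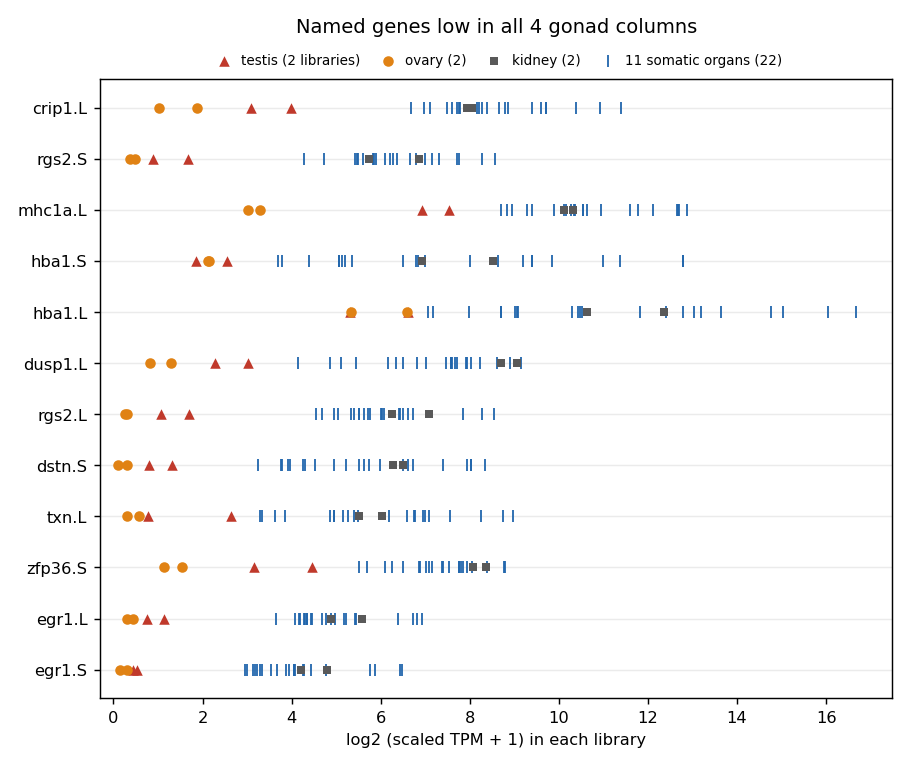
Values in every library, as log2(scaled TPM + 1) on the x axis, of the 12 named genes low in all 4 gonad columns, with testis as triangles, ovary as circles, kidney as squares and the 22 somatic libraries as ticks. All gonad symbols lie to the left of all ticks, the kidney squares lie among the ticks, and hba1.L has the smallest separation.

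Markers of blood, vessels and immune cells were low. Of the erythrocyte list 13 of 17 models were lower in gonads, against 19.6% of all models. Low in all 4 columns were 7, against 2.11% of all models. The list's median was -2.94, and 6 were called with tissues as the unit. List medians of the somatic organs ran from -2.112 in intestine, -1.74 in stomach and -1.674 in skin to 2.783 in liver. Testis had -2.727 and ovary -3.482, so both lay below that range. The adult alpha globin gene hba1.S stood at 2.59 and 4.82 scaled TPM in testis and 3.36 and 3.42 in ovary, against 12 to 7110, and hba1.L at 38.4 and 96.3 in testis and 39.4 and 95.1 in ovary, against 132 to 103000 with a median of 1450. The gonads overlapped in hba1.L and in hba1.S. The heme synthesis gene alas2.1 and the carbonic anhydrase gene ca2.L differed by -3.98 and -4.31. The erythroid regulator gata1.L was not called, at 17.9 and 5.82 scaled TPM in testis and 0.0819 and 0.216 in ovary, against a somatic median of 4.12.

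Leukocyte genes were lower in 37 of 40 models, with 12 low in all 4 columns, a median of -2.19, 10 calls with tissues as the unit and 24 with a pseudocount of 5. The signalling regulator arhgdib.S, found mainly in blood cells, stood at 2.44 and 4.07 scaled TPM in testis and 0.726 and 0.14 in ovary, against 9.66 to 399, with the highest value in spleen. The lysosomal protease gene ctss.S stood at 8.6 and 18 scaled TPM in testis and 0.562 and 2.94 in ovary, against 10.6 to 502, so testis replicate 2 overlapped the somatic range. The common leukocyte antigen ptprc.L stood at 0.737 and 0.219 scaled TPM in testis and 0.0819 and 0 in ovary, against a somatic median of 3.27. The chemokine receptor gene ccr7.S was not called (log2 difference 0.14, SE 0.21, adjusted p = 0.589). It stood at 5.92 and 5.73 scaled TPM in testis and 0.032 and 0.0509 in ovary. Its gonads went opposite ways, 1.49 in testis (adjusted p = 0.000473) and -1.22 in ovary (adjusted p = 0.00163).

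Endothelial genes were lower in 38 of 42 models and higher in 1, with 6 low in all 4 columns, a median of -1.81 and 6 calls of lower with tissues as the unit. With a pseudocount of 5, 14 of the 42 were called lower. List medians of the somatic organs ran from -1.432 in skin to 1.692 in lung, against -1.422 in testis and -2.078 in ovary. Skin was thus as low as testis. The list summed to 71.9 and 141 scaled TPM in testis and 47.9 and 99.1 in ovary. Somatic sums ran from 41.6 in skin replicate 2 to 1880 in lung replicate 1, with a median of 382. The apelin receptor gene aplnr.S stood at 0.376 and 0.714 scaled TPM in testis and 0.16 and 0.687 in ovary, against 1.45 to 251, with the highest value in lung, and clec14a.S at 0.9 and 0.184 in testis and 0.0712 and 0 in ovary, against 1.27 to 185. The member that was higher was the transcription factor gene sox7.L, at 4.51 and 4.78 scaled TPM in testis and 23.6 and 27.5 in ovary, against a somatic median of 1.7. The receptor gene flt1.L was not called, at 11.4 and 0.818 scaled TPM in testis and 0.0463 and 0 in ovary (log2 difference 0.34, SE 0.34, adjusted p = 0.407).

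Antigen presentation and interferon genes were lower in 25 of 37 models, with 8 low in all 4 columns and a median of -1.55, and 13 were called with tissues as the unit and 18 without scaling. The class I gene mhc1a.L stood at 185 and 121 scaled TPM in testis and 8.81 and 7.15 in ovary, against 412 to 7490 (log2 difference -5.50, SE 0.32, adjusted p = 1.99e-10). Ovary was lower than testis by 4.07 on the log2 scale (SE 0.58, adjusted p = 3.63e-05). The peptide transporter gene tap1.L stood at 1.33 and 3.84 scaled TPM in testis and 0.196 and 0.547 in ovary, against 4.64 to 93.1, and the lysosomal gene lgmn.L at 26.1 and 11.8 in testis and 3.48 and 1.21 in ovary, against 46.5 to 398. The thiol reductase gene ifi30.L was the member that was higher, at 9.88 and 39.2 scaled TPM in testis and 31.5 and 269 in ovary, against a somatic median of 11.6. The protease gene ctsb.S was not called, at 99.8 and 521 scaled TPM in testis and 120 and 844 in ovary, against a somatic median of 395.

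Extracellular matrix and fibroblast genes were lower in 38 of 58 models, with a median of -1.61 and 9 calls with tissues as the unit. In testis alone 14 models were lower and 6 higher, against 14.5% and 14.3% of all models. In ovary alone 48 were lower, against 24.3% of all models. In testis minus ovary 30 of the 58 were higher, against 14.4% of all models. List medians of the somatic organs ran from -1.277 in brain and -1.116 in liver to 1.259 in heart. Testis, at -0.718, lay in that range, and ovary, at -2.514, lay below it. The collagen gene col1a2.L stood at 11.8 and 172 scaled TPM in testis and 3.29 and 22.2 in ovary, against 17.6 to 987. The crosslinking enzyme gene lox.L was low in all 4 columns, at 1.28 and 0.979 scaled TPM in testis and 0 and 0.0636 in ovary, against 1.34 to 38.1. The matricellular gene cyr61.L stood at 8.17 and 6.42 scaled TPM in testis and 1.46 and 2.65 in ovary, against 6.87 to 395. The proteoglycan gene lum.S had the largest difference of the list (-4.27, SE 0.79, adjusted p = 0.000187), at 0.39 and 0.0346 scaled TPM in testis and 0.0356 and 0 in ovary, but a liver library stood at 0.0697 and the call was lost with tissues as the unit (adjusted p = 0.102). The gonads of loxl1.L went opposite ways, 2.06 in testis (adjusted p = 0.0173) and -2.05 in ovary (adjusted p = 0.0124), with 49.6 and 202 scaled TPM in testis and 0.986 and 16.3 in ovary.

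Immediate early and stress response genes were lower in 45 of 70 models, 18 of them low in all 4 columns, and 7 higher (median -1.47), and 24 were lower and 1 higher with tissues as the unit. With a pseudocount of 5, 3 were higher. These genes are switched on within minutes by growth factors, wounding or dissociation. The phosphatase gene dusp1.L stood at 7.15 and 3.86 scaled TPM in testis and 0.758 and 1.44 in ovary, against 16.5 to 571, with the lowest somatic value in brain. The messenger RNA decay factor zfp36.S stood at 7.98 and 20.9 scaled TPM in testis and 1.19 and 1.92 in ovary, against 44.7 to 442. The early growth response gene egr1 had wide gaps in each copy, with egr1.L at 0.677 and 1.21 scaled TPM in testis and 0.352 and 0.229 in ovary, against 11.5 to 120, and egr1.S at 0.348 and 0.449 in testis and 0.235 and 0.102 in ovary, against 6.79 to 87.4. Members that were higher included socs1.S, an inhibitor of cytokine signalling, at 1.17 and 1.46 scaled TPM in testis and 87.7 and 448 in ovary, and ier5.S, at 16.6 and 77.9 in testis and 45.5 and 526 in ovary, against somatic medians of 4.44 and 7.86. The gene ier2.L was not called. It stood at 2.28 and 16.1 scaled TPM in testis and 75.9 and 1290 in ovary, against a somatic median of 39.1. Its gonads went opposite ways, -2.60 in testis (adjusted p = 0.0211) and 2.80 in ovary (adjusted p = 0.00977).

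Adhesion, integrin and caveola genes were lower in 28 of 55 models and higher in 1, against 19.6% and 16.6% of all models. Without scaling 18 were lower, and with tissues as the unit 5. The list's median was -1.20, and none of the 55 was called high or low in all 4 columns. In testis alone 18 were lower and 1 higher, and in ovary alone 31 and 3. Of all models, 14.5% were lower in testis and 24.3% in ovary. List medians of the somatic organs ran from -0.97 in brain to 1.168 in lung. Testis, at -0.754, lay in that range, and ovary, at -1.351, lay below it. The membrane linker gene anxa2.S stood at 32.4 and 15.3 scaled TPM in testis and 1.26 and 1.56 in ovary, against 7.67 to 1050, and the caveola gene ptrf.L at 13.2 and 7.48 in testis and 0.715 and 0.0636 in ovary, against 4.35 to 717. The intermediate filament gene vim.S stood at 79.2 and 337 scaled TPM in testis and 2.89 and 8.17 in ovary, against 64.6 to 1500. The gene lgals3.L was higher (log2 difference 2.29, SE 0.45). The calcium-binding gene s100a11.L was not called, at 58 and 440 scaled TPM in testis and 28.4 and 449 in ovary (log2 difference -1.43, SE 0.62, adjusted p = 0.057), and passed with the replicate block (adjusted p = 0.0022).

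Cytosolic ribosomal protein genes were lower in 27 of 57 models, with a median of -1.31, 13 calls of lower and 1 of higher without scaling, and 1 call of lower with tissues as the unit. In testis alone 8 models were lower and in ovary alone 33, where all models gave 14.5% in testis and 24.3% in ovary, so the count in testis was near that of all models. The gene rps25.1 stood at 66.2 and 48.7 scaled TPM in testis and 14.6 and 16.7 in ovary, against 30.6 to 378 (log2 difference -2.35, SE 0.21, adjusted p = 5.73e-08). For rpl36.L the values were 572 and 919 scaled TPM in testis and 113 and 358 in ovary, against 288 to 5000, and the call was lost with tissues as the unit (adjusted p = 0.172). The list varied strongly between replicates, summing to 15900 and 88400 scaled TPM in testis and 3710 and 31800 in ovary. Somatic sums ran from 8010 in brain replicate 1 to 228000 in liver replicate 2, with a median of 45600. List medians of the somatic organs ran from -2.145 in brain and -1.546 in eye to 1.211 in liver. Testis had -0.281 and ovary -2.037, so brain lay below both gonads. The gene rplp1.L, at 2180 and 25900 scaled TPM in testis and 325 and 5430 in ovary, did not pass (adjusted p = 0.169).

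Oxidative phosphorylation genes were called higher in 4 of 94 models (4.26%) and lower in 9 (9.57%), against 16.6% and 19.6% of all models. Their median was 0.15, and it was 0.80 without scaling and -0.09 under quantile normalization. Without scaling 35 of the 94 were called higher, where 8347 of all 33317 models were also called higher. The muscle isoform gene cox6a2.L stood at 0.139 and 0 scaled TPM in testis and 0.0783 and 0 in ovary, against a somatic median of 0.656 and 13500 in a muscle library, and its difference of -3.07 was not called with tissues as the unit (adjusted p = 0.47). The succinate dehydrogenase copy sdha.S, at 28.8 and 13.5 scaled TPM in testis and 9.57 and 5.67 in ovary, differed by -1.77 and also lost its call (adjusted p = 0.173). The complex I gene ndufb2.S, at 221 and 1210 scaled TPM in testis and 64.9 and 1090 in ovary, did not pass (log2 difference 0.43, SE 0.68, adjusted p = 0.6).

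**Figure D4:**
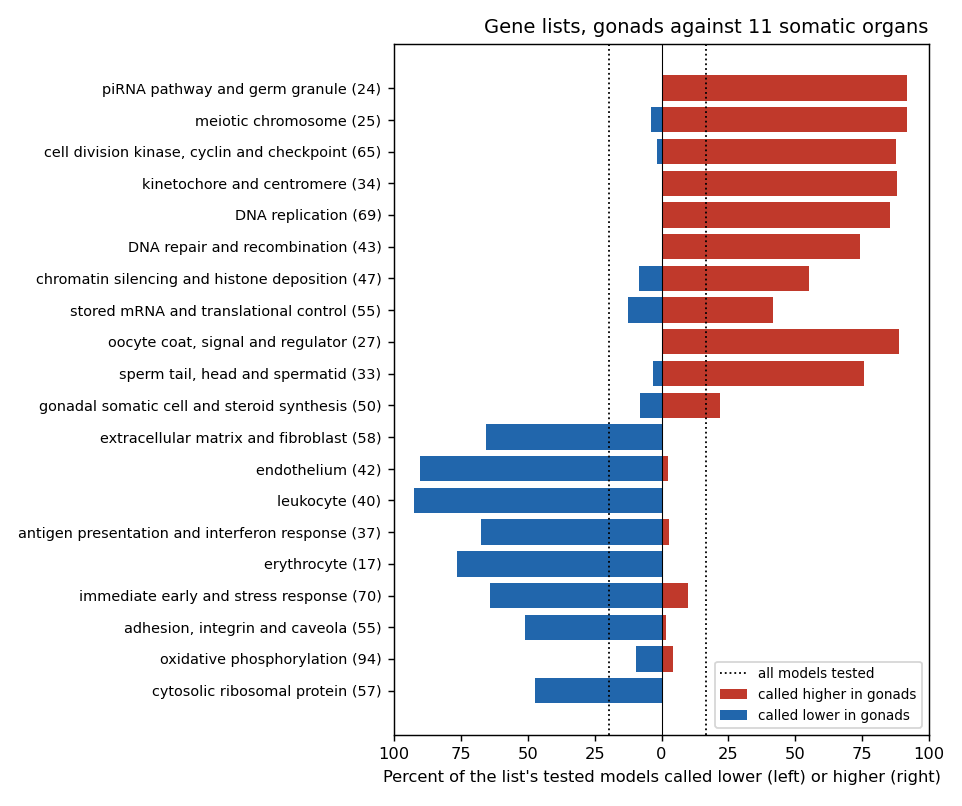
Percent of the tested models of each list (number in brackets) called higher (red, to the right) or lower (blue, to the left) in gonads than in the 11 somatic organs, with dotted lines at 16.6% and 19.6%, the shares of all models. The lists of germ cells, division and replication extend to the right and those of blood, vessels, immune cells and matrix to the left, while oxidative phosphorylation stays inside the dotted lines.

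**Figure D5:**
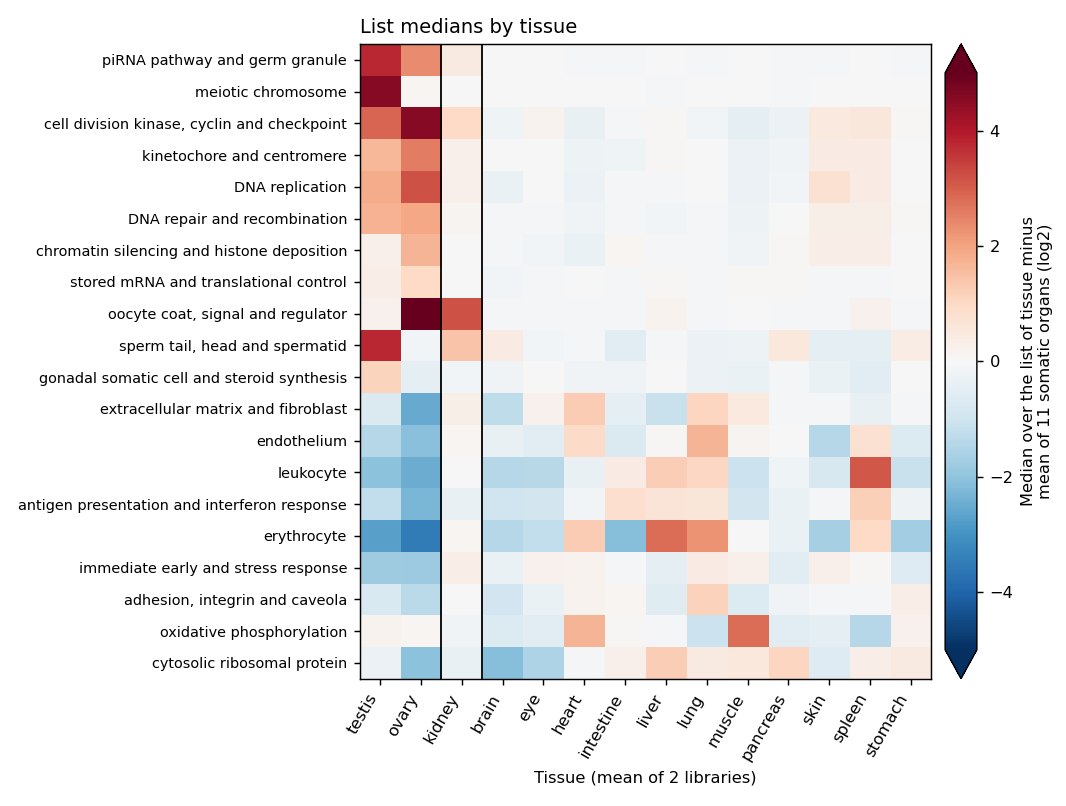
Median over each list of the difference between a tissue mean and the mean of the 11 somatic organs, on the log2 scale, with testis, ovary and kidney in the first columns and the scale ending at 5. Testis and ovary share the colour of the division, replication and leukocyte lists, differ for the meiotic (4.54 in testis, 0.09 in ovary), oocyte (0.23 in testis, 7.19 in ovary) and sperm lists, and kidney follows ovary for the oocyte list (3.17).

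Among low genes that belonged to no list, picked after their values were seen, the hyaluronan receptor gene cd44.S stood at 0.32 and 0.737 scaled TPM in testis and 0.0427 and 0 in ovary, against 1.23 to 155 (log2 difference -4.57, SE 0.26, adjusted p = 1.92e-10), and cd44.L differed by -4.44 (SE 0.27). The iron exporter gene slc40a1.S stood at 7.39 and 3.54 scaled TPM in testis and 0.868 and 0.394 in ovary, against 10.9 to 478. The chemokine gene CCL5.L differed by -4.67 (SE 0.29) and ndrg1.S by -4.29 (SE 0.23).

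The 704 shared low models were also compared between the gonads. In testis minus ovary 101 (14.3%) were higher and 1 (0.142%) lower, against 14.4% and 10.8% of all models. The share higher in testis was thus near that of all models. The median was 0.40, against 0.14 over all models. In 345 of the 704 no gonad library reached 1 scaled TPM, so there the gonads could not differ by the 1 needed for a call. These shares are thus partly set by the choice of models. In kidney 46 (6.53%) were higher and 28 (3.98%) lower than in the somatic organs, near the 7.36% and 2.89% of all models.

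The L and S copies of a gene share sequence, so reads may have been split between them, and without strand information reads of overlapping genes cannot be told apart. Of 7119 pairs with both copies tested, 76 had both copies high in all 4 gonad columns, 101 the L copy only and 107 the S copy only. In the pairs with 1 such copy the other copy was called higher in 110, not called in 94 and called lower in 4. For low models, 45 pairs had both copies, 111 the L copy only and 107 the S copy only. In these pairs with 1 low copy the other copy was called lower in 144, not called in 70 and called higher in 4. Over all calls, 590 of the 7119 pairs had both copies called higher, 463 the L copy only and 503 the S copy only. Both copies were called lower in 826, the L copy only in 711 and the S copy only in 514. In 62 of the 7119 pairs the copies were called in opposite directions.

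The somatic organ nearest to the gonads differed from gene to gene. Among the 993 high models the highest somatic tissue was spleen in 21%, brain in 19% and skin in 16.6%, against 11.8%, 20.5% and 10.2% of all models. Among the 704 low models the lowest somatic tissue was brain in 25.1%, against 15.8% of all models.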

How the data were processed

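Polyadenylated RNA of 14 tissues was sequenced without strand information on a HiSeq 2000 after TRIzol extraction and column purification of minced tissue, per the labels' protocols. The authors deposited TPM values in 1 column per library; BWA 0.7.10 and RSEM 1.2.19 are named in the submitters' processing notes, with reads assigned to cDNA models. Every library sums to about 1000000, so read depth is unknown. From these TPM, size factors by median of ratios were computed over 18274 models, and models were kept where 2 or more libraries reached a TPM of 1 (33317 of 45831). On the log2(scaled TPM + 1) scale, limma (3.58.1, under R 4.3.3) estimated each tissue's mean over all 28 libraries, which left 14 residual degrees of freedom, and moderated the variances with a trend. Contrasts were gonads, testis, ovary and kidney minus the mean of the 11 somatic tissues, and testis minus ovary. P-values were adjusted by Benjamini-Hochberg over all models tested. The code was tested on simulated data.

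The gonads, the 20 gene lists and the rules were chosen with earlier results of these data known. Of 45831 models 20523 carried no symbol, so list counts cover only models with a matching symbol and no list is complete. The symbols found ranged from 26 of 71 for the sperm list to 38 of 47 for the immediate early list, with 24 of 53 for the meiotic list. Among models with a proper symbol, the text names the 12 largest differences and 8 widest gaps of the high models, the 10 and 6 of the low models, the 4 largest testis against ovary differences each way, and, per list, the 2 largest differences and the uncalled member with the highest gonad level. One gene that this rule names is not reported here. Other list members and genes outside the lists were named after their values were seen. P-values measure the spread between the 2 libraries per tissue, which differ in both frog and dataset.

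The replicate numbers mark the same animal across the female tissues, per the study's design text. The difference between replicates in ovary correlated across models with that in each of the 11 somatic tissues (0.138 to 0.671, median 0.429). That in testis, from a sibling, did so with 0.05 to 0.643 (median 0.442). Between ovary and testis the correlation was 0.755, above each of these pairs of a gonad and a somatic tissue. Pairs among the 12 female tissues ran from -0.00214 to 0.761. The gonads thus shared much of their replicate difference, although they came from different animals. The main fit treated their libraries as independent. Alternatives were no scaling, quantile normalization, other pseudocounts and filters, no variance trend, a replicate block, kidney among the somatic tissues and leaving out each library. A further one, tissues as the unit, kept the libraries as observations and let those of a tissue correlate (statmod 1.5.0). No genome or model sequences were used here. Figures were drawn with matplotlib 3.10.9.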

Additional observations from a re-analysis of the deposited data

Results flagged for a closer look

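Among the 83 named genes, 50 differed between the gonads themselves in the testis minus ovary contrast of limma, against 25.2% of all models. Some of the 83 were named for this difference, so the count is partly set by the choice, and each value below is that log2 difference, positive where testis was higher. The differences above 0 were led by h1fx.S (12.6), syce2.L (7.78), dmrt1.L (7.52), clu.L (7.39), inha.L (6.16), lrguk.L (5.07), dazl.L (4.28) and loxl1.L (4.11). Next in size stood zmynd12.L (4.09), mhc1a.L (4.07), desi2.L (4.04), dnajb13.S (3.91), arhgap19-like.L (3.83), stag3.L (3.36), gata1.L (3.31) and anxa2.S (3.28). Smaller differences above 0 belonged to ptrf.L (3.02), pabpc1.S (2.88), ccr7.S (2.71), lgmn.L (2.57), zfp36.S (2.47), ctss.S (2.45), flt1.L (2.21) and crip1.L (2.1). The smallest passing ones above 0 belonged to rad54b.L (2), mael.L (1.85), rps25.1 (1.8), msh4.L (1.77), arhgdib.S (1.57), mre11a.L (1.36) and fkbp6.L (1.25). Among differences below 0 the largest belonged to zp4.L (-6.66), patl2.L (-6.41), cdca7-like.1.L (-6.37), zp3.1 (-6.29), ccna1.S (-5.46), ier2.L (-5.39) and zpy1.L (-4.53). They were followed by plk1.S (-3.27), mcm7.L (-3.24), ccnb2.S (-3.12), btg4.S (-3.05), rrm2.2.S (-2.9), ccna1.L (-2.64) and ccnb2.L (-2.55). The smallest below 0 belonged to plk1.L (-2.4), caprin2.L (-2.27), ccnb1.2.S (-2.07), ehmt2.L (-1.52) and grip2.S (-1.24).

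For 3 of the 83 genes 1 gonad library stood far from the other 3 by Dixon's ratio of gap to range. Testis replicate 1 stood apart for msh4.L (0.909) and for lum.S (0.894), and testis replicate 2 for arpp19.S (0.892). Chance flags about 1 in 20 groups of 4, and the 4 columns join a pair of tissues, so a difference between the gonads can enter this ratio.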

How the results depend on the processing

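Without scaling, 8347 models were higher in gonads, 123 were low in all 4 columns, 3813 were higher and 2158 lower in each gonad, and 548 of the high models were higher in kidney. Quantile normalization gave 184 high models that were higher in testis than ovary and 225 that were lower. With a pseudocount of 0.1, 10175 models were lower. With a pseudocount of 5, 2542 were lower, 438 were low in all 4 columns, 1228 were higher and 1504 lower in each gonad, and 69 of the high models were higher in kidney. With tissues as the unit, that is with libraries of a tissue allowed to correlate, 2270 were higher, 1084 lower and 462 low in all 4 columns. The cause of these shifts was not tested. Of the 993 high models, 993, 973 and 866 were still called higher without scaling, under quantile normalization and with a pseudocount of 5, and 728, 883 and 866 were still set apart. Of the 704 low models, 664, 678 and 438 were still called lower under these settings, and 114, 362 and 438 were still set apart.

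When each library was left out in turn, the counts ranged over 4743 to 6520 higher, 5968 to 6711 lower, 993 to 1391 high in all 4 columns and 704 to 1509 low in all 4. In each gonad 1484 to 2353 were higher and 2400 to 3832 lower. Of the high models, 98 to 177 were higher and 197 to 385 lower in testis than ovary, and 117 to 267 were higher in kidney. Fewer columns to clear raise the counts of models set apart by construction.

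With the replicate block, 5739 models were higher and 6740 lower, and no count moved by over 1.5 times. Of the named genes, rplp1.L (adjusted p = 0.0144) and s100a11.L (0.0022) gained a call under this block. Other settings that gave a call to named genes without one were no scaling (arpp19.S 1.01, ehmt2.L 1.55, grip2.S 1.14, mre11a.L 1.44, ndufb2.S 1.10, pou5f3.2.S 1.05), quantile normalization (grip2.S 1.09, pou5f3.2.S 1.29, s100a11.L -1.68) and a pseudocount of 0.1 (gata1.L -1.63, grip2.S 2.36, msh4.L 1.67, pou5f3.2.S 2.65).

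Among named genes that were not called, the sign of the difference turned for clu.L (0.18), crem.L (0.0574) and ctsb.S (0.11) without scaling. It turned for loxl1.L (-0.0909) and rplp1.L (0.48) under quantile normalization, and for ccr7.S (-0.21), flt1.L (-0.20), ier2.L (-0.0042) and loxl1.L (-0.17) with a pseudocount of 0.1. With kidney among the somatic tissues it turned for loxl1.L (-0.10). With libraries left out, ranges crossing 0 were -1.03 to 0.14 for clu.L, -1.08 to 0.0073 for crem.L, -1.27 to 0.14 for ctsb.S, -0.35 to 1.03 for flt1.L, -0.92 to 1.12 for ier2.L, -0.78 to 0.78 for loxl1.L, -0.00035 to 1.5 for msh4.L, -0.58 to 1.44 for ndufb2.S and -0.00996 to 0.50 for zw10.L.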

Other observations

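Among the 4 pairs in which 1 copy was high in all 4 gonad columns and the other was called lower, ankrd54.S differed by -1.42, tonsl.S, a copy of a replication-linked repair gene, by -1.40 and slc35a4.S by -1.29. These genes were chosen after their values were seen.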
